A study of Mus musculus with 6 samples.

Results

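Sterol and lipid synthesis is represented here by 8 genes, chosen by name with earlier results of these data known. The genes were matched to the peak lists by Ensembl feature and Entrez identifier. They are the regulators Srebf1, Srebf2, Scap and Insig1 and the enzyme genes Hmgcs1, Sqle, Fasn and Scd2, out of 21883 mouse protein-coding genes on placed chromosomes. All 8 were found. The data are ChIP-seq peak lists of natural killer (NK) cells, the cytotoxic lymphocytes of innate immunity, taken from mouse spleen and grown for 5 days with IL-2 at 500 ng/mL. The wild-type cells (WT) were Tcf7+/+ on strain B6, and the knockout cells (KO) were Tcf7-/-, of strain B6.129 Tcf7Tm1Cle, so they lacked Tcf1, the transcription factor that Tcf7 encodes. Immunoprecipitation targeted Tcf1 in some libraries and, in others, H3K4me3, the trimethylated histone found at active promoters. Each genotype and antibody has 1 library, so the differences have no replicate spread to be set against, genotype and strain cannot be told apart, and no p-value is given.

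Cells make cholesterol and unsaturated fatty acids under the control of the sterol regulatory element binding proteins (SREBPs), encoded by Srebf1 and Srebf2. SREBPs are held in the endoplasmic reticulum by SCAP and INSIG proteins while sterols are plentiful. When sterols run low, SCAP escorts them to the Golgi, where they are cleaved, and the released fragments enter the nucleus and activate enzyme genes such as Hmgcs1, Sqle, Fasn and the Scd genes. SREBP activity is known to be needed for the metabolic response of NK cells to cytokine stimulation.

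Promoters of 6 of the 8 genes are held in the RefSeq table used here (build GRCm38.p6), and the H3K4me3 peaks described below lie over them. Those of 5 are shown, without the overlapping pair of Scap and the third start of Srebf1. Each line gives the 250 bases before a start, 5′ to 3′ on the strand of the gene. Capitals mark the core letters of a sterol response element (TCACNCCAC), the E-box CACGTG, which SREBPs can also bind, and ATTGG or its complement, the letters bound by NF-Y, a known partner of SREBPs.

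Hmgcs1 (chr13:119690101-119690350, plus strand): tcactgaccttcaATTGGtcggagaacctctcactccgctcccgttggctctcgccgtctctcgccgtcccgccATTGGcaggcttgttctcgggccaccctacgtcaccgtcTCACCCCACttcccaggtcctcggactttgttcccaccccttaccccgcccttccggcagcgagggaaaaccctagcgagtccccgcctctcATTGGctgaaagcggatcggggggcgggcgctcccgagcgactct
Insig1 (chr5:28071162-28071411, plus strand): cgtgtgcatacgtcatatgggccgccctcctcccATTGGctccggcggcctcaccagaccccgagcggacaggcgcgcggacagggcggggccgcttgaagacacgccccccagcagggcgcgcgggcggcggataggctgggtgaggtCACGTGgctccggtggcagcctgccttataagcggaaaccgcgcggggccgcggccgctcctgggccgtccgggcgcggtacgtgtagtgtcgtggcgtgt
Srebf2 (chr15:82147019-82147268, plus strand): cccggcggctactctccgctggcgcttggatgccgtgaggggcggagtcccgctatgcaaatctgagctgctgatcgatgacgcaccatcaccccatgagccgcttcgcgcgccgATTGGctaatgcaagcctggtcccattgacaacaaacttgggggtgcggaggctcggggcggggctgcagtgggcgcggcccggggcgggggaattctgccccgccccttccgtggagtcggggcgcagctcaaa
Fasn (chr11:120824548-120824797, minus strand): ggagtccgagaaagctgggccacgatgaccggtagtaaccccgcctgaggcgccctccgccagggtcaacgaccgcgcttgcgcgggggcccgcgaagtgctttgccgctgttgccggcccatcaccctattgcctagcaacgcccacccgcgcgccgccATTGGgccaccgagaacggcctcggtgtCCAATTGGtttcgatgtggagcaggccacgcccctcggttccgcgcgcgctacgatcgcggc
Srebf1, outermost start (chr11:60222582-60222831, minus strand): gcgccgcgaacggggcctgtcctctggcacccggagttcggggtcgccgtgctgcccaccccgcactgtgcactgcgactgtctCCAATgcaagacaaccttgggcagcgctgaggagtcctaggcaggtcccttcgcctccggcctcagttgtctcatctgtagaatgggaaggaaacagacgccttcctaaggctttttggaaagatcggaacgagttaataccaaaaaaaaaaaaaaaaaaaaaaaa
Srebf1, next start (chr11:60220628-60220877, minus strand): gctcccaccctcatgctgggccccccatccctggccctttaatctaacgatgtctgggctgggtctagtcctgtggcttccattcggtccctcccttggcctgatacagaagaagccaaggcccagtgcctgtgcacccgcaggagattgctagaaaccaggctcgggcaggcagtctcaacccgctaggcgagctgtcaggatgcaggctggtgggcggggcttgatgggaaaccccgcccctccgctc

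The search covered both strands of windows of 300 bases, from 250 before to 50 after each start, for 32851 RefSeq promoters, 9 of which belong to these genes. The sterol response core was found at Hmgcs1, as TCACCCCAC from 137 to 129 bases before the start, and in 1.24% of all promoters. The longer form, which has an A before the core and C at its open position, was found in none of the 9 and in 0.0913% of all promoters. NF-Y letters stood in 6 of the 9 promoters, at Fasn, Hmgcs1, Insig1, Srebf1 and Srebf2, against 37.4% of all promoters. The E-box stood in 3 of the 9, at Insig1 and at the pair of overlapping Scap promoters, against 7.15% of all. The GC box GGGCGG, bound by Sp1, stood in 7 of the 9 and in 35.7% of all. The Tcf/Lef letters searched were CTTTG followed by AA, AT, TA or TT. They stood in 1 of the 9, with TT at Hmgcs1 from 112 to 106 bases before the start, against 16.9% of all promoters. The 9 promoters belong to 6 genes, and the shares of all promoters are not matched on H3K4me3, so these counts are description only. A match describes letters and does not show that a factor is bound.

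H3K4me3 covered the start of all 8 genes in both genotypes. Peaks of both libraries that overlapped were merged into regions, and the tags (reads counted in called peaks) of every region within 1 kb of the transcription start site (TSS) were summed for each library. Of 19995 genes with a known start, 49.5% were marked in both libraries. The tags of the 8 genes ranged from 664 to 2514 in WT and from 700 to 1998 in KO. All 8 lay above the median of the 9890 genes marked in both, which was 553 tags in WT and 675 in KO. These counts are not scaled to depth, which is unknown here, and each KO library value therefore has to be read against the median gene, which had 1.20 times as many tags in KO as in WT. Log2 ratios of KO over WT are given after subtracting that shift of 0.27, with a 95% interval that covers counting error only.

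**Figure D1:**
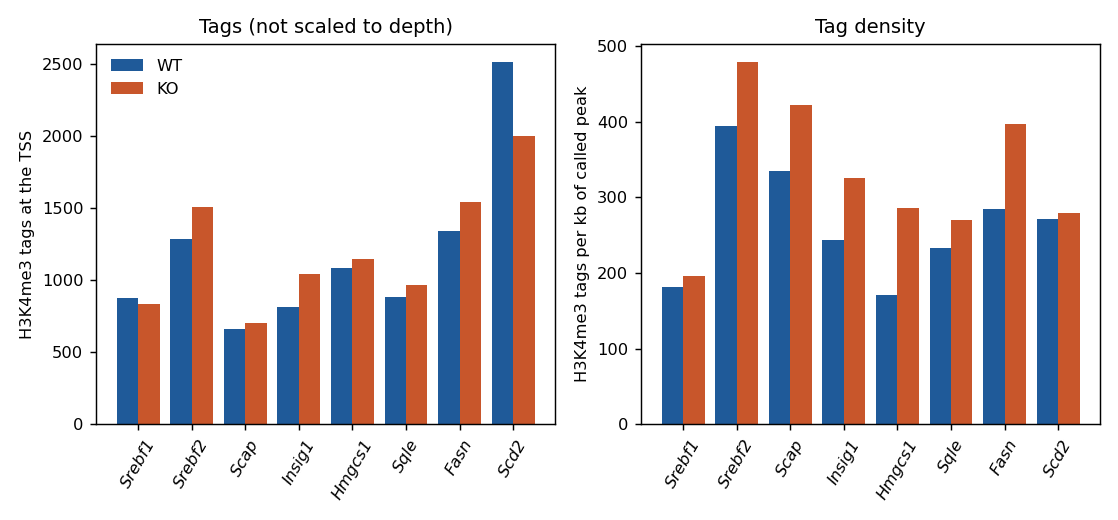
H3K4me3 tags within regions at the TSS (left) and tags per kb of called peak (right) for the 8 genes, 1 library of WT (blue) and 1 of KO (orange), with no error bars because each genotype has 1 library. Scd2 has the most tags in each library, and Srebf2 the highest tag density, 394 tags per kb in WT and 479 in KO.

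Tags per kb of called peak put different genes on a common scale, but they also move with the called width. In WT the order from the highest density was Srebf2 (394 tags per kb), Scap (335), Fasn (285), Scd2 (271), Insig1 (243), Sqle (233), Srebf1 (182) and Hmgcs1 (172). In KO it was Srebf2 (479), Scap (422), Fasn (397), Insig1 (326), Hmgcs1 (286), Scd2 (279), Sqle (270) and Srebf1 (196). Srebf2, Scap and Fasn thus held the same top places in both libraries. Scd2 stood lower in the KO order, and Hmgcs1, last in WT, stood higher. At Hmgcs1 the called width was 6320 bp in WT and 4003 bp in KO, with 1084 and 1145 tags. Its higher place in KO is therefore not shown to be a higher level of the mark. The median gene marked in both had 234 tags per kb in WT and 301 in KO.

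Srebf2, on chromosome 15 (gene at 82147269 to 82205379, plus strand), encodes SREBP-2, the form that mainly drives cholesterol synthesis and uptake. Its promoter held 1285 tags in WT and 1508 in KO, a centred log2 ratio of -0.04 (interval -0.14 to 0.07). The peak was nearly the same in extent, covering 3261 bp in WT against 3149 bp in KO, and both started at the same base, 82146445. A further peak, which began 18.8 kb inside the gene, was called in WT alone, with 59 tags and a score of 78.9.

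Scap, on chromosome 9 (110333288 to 110384949, plus strand), encodes the sterol sensor that escorts SREBPs. Its promoter held 664 WT tags against 700 in KO, at a ratio of -0.19 (interval -0.35 to -0.04), and 0.01 per kb of peak. Its peak was the narrowest of the 8, at 1982 bp in WT and 1660 bp in KO. A separate small peak, 4.11 to 2.35 kb upstream, was called in WT alone with 80 tags. Counting it, as a window of 2.5 kb does, moved the ratio of Scap to -0.35.

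Insig1, on chromosome 5 (28071412 to 28078662, plus strand), encodes the retention protein that is itself an SREBP target. It held 813 tags in WT and 1044 in KO, and its ratio of 0.09 (interval -0.04 to 0.23) was the highest of the 8. The peak measured 3345 bp in WT and 3207 bp in KO, and its summit stood 252 bp and 248 bp after the TSS.

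Srebf1, on chromosome 11 (60199084 to 60224186, minus strand), encodes SREBP-1, which mainly drives fatty acid synthesis and is known to be made in forms that begin at different starts. The RefSeq table gives 3 starts, the second 1.95 kb and the third 12.1 kb after the outermost, and does not name the forms. In WT a single peak of 4818 bp with 875 tags covered the first and second starts. In KO the same stretch was called as separate peaks with a gap of 251 bp, 1 of 1977 bp with 274 tags over the first start and 1 of 2292 bp with 564 tags over the second. The 2 KO peaks together held 838 tags, so the merged region gave a ratio of -0.33 (interval -0.47 to -0.19), whereas the separately called peak at the first start gave -1.94. Such splits were rare, since 54 of 10615 regions called in both (0.509%) had 1 WT peak and several KO peaks, and 46 (0.433%) the reverse.

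The summits of the WT peak and of the larger KO peak at Srebf1 lay nearer the second start than the first. How the WT tags divide between these starts cannot be read from a single peak. The WT summit was 514 bp after the second start and 2468 bp after the first, and the summit of the larger KO peak was 481 bp after the second. The KO peak over the second start had 246 tags per kb against 139 over the first. The third start had a region of its own, with 380 tags in WT and 309 in KO, a ratio of -0.57 (interval -0.79 to -0.34) and -0.52 per kb of peak. When all RefSeq starts were used, which adds this region, Srebf1 came to 1255 WT tags against 1147 in KO, at a ratio of -0.40. Srebf1 lies 7.92 Mb from Tcf7 on the same chromosome, and the labels name a mixed strain for KO, so at this gene the strain of the flanking DNA and the genotype cannot be told apart.

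Hmgcs1, on chromosome 13 (119690351 to 119708260, plus strand), encodes an early synthase of the sterol pathway, which makes HMG-CoA. Its tags numbered 1084 in WT against 1145 in KO, at a ratio of -0.19 (interval -0.31 to -0.07). Its peak covered 6320 bp in WT against 4003 bp in KO, the largest difference in width of the 8 at 2317 bp. Most of it, 1980 bp, lay on the side of the gene body, and 337 bp lay upstream. The WT peak reached 4.43 kb past the TSS and the KO peak 2.45 kb. Per kb of peak the sign turned, to 0.42.

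Sqle, on chromosome 15 (59315092 to 59331193, plus strand), encodes squalene epoxidase, an oxygen-dependent step on the way to sterols. The promoter carried 884 WT tags and 964 KO tags, which gave a ratio of -0.14 (interval -0.27 to -0.01), and -0.11 per kb. Its peak measured 3798 bp in WT and 3569 bp in KO. Sqle was the exception among the 8 in that its KO peak reached slightly further into the gene, by 48 bp.

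Fasn, on chromosome 11 (120805958 to 120825166, minus strand), encodes fatty acid synthase. WT had 1344 tags there and KO 1545, for a ratio of -0.07 (interval -0.17 to 0.04), and 0.16 per kb of peak. Its peak measured 4715 bp in WT and 3895 bp in KO, with the WT peak reaching 3.14 kb and the KO peak 2.43 kb into the gene.

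Scd2, on chromosome 19 (44293676 to 44306864, plus strand), encodes a stearoyl-CoA desaturase, which puts the double bond into saturated fatty acids. Its promoter carried 2514 tags in WT, more than 99.4% of genes marked in both, and 1998 in KO. Scd2 and Srebf1 were the members with fewer tags in KO than in WT. The ratio at Scd2 was -0.60 (interval -0.68 to -0.51), and 4.47% of genes lay lower. The domain was broad, 9273 bp in WT against 7160 bp in KO, and it was shorter in KO on both sides, by 905 bp upstream and 1208 bp downstream. Per kb of peak the ratio was -0.28, beside an SD of 0.27 of the ratios per kb over all genes.

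**Figure D2:**
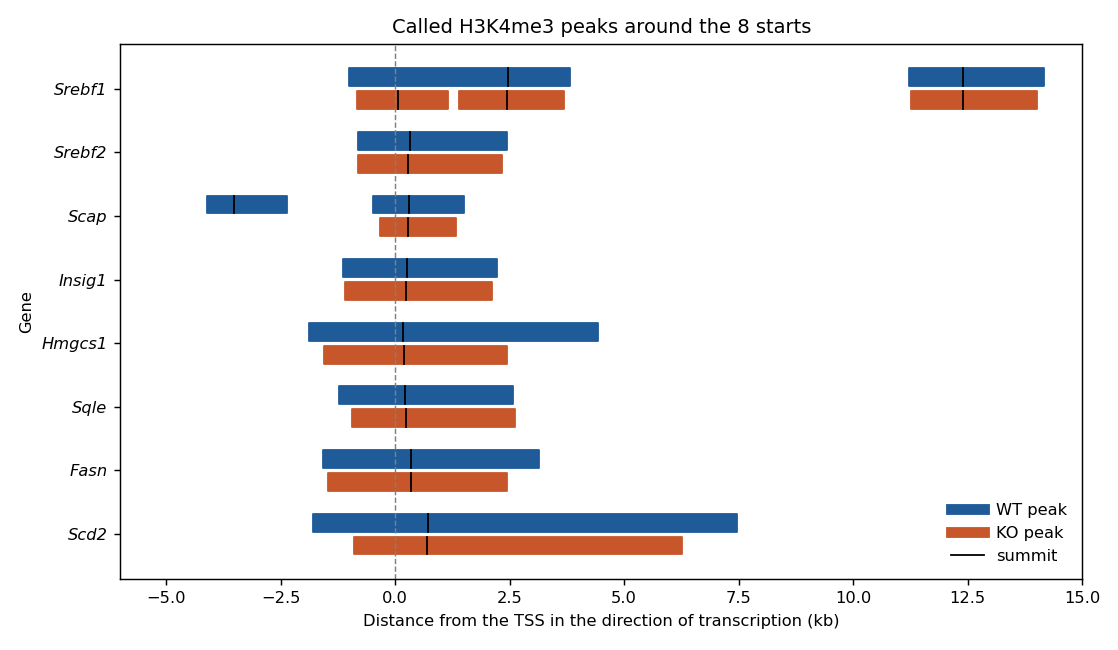
Called H3K4me3 peaks around each TSS, in kb along the direction of transcription, for WT (blue) and KO (orange), with the summit of each peak as a black line. The WT peak is split in KO at Srebf1, WT peaks reach further into the gene at Hmgcs1, Fasn and Scd2, and the small peak upstream of Scap is in WT alone.

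As a group, 1 of the 8 (Scd2) had a centred ratio at or below -0.5, which is 1.41-fold, against 6.07% of all genes marked in both, and 0 were at or above 0.5, against 1.32%. A count of 1 in 8 is too small to set against that share. The median of the 8 was -0.16, where the median over all genes is 0 by construction. A counting interval wholly below 0 was found for 5 of the 8 (Srebf1, Scap, Hmgcs1, Sqle and Scd2), against 21.5% of all genes, and one wholly above 0 for 0 of the 8, against 19%. Intervals narrow as tags rise, and all 8 had more tags than the median gene, so these shares are not matched on tags. Scaling by all tags in peaks, in place of the median gene, left 2 intervals below 0 and put 1 above 0, with a median of -0.08. Per kb of peak the median was -0.01, and the intervals of 2 genes (Srebf1 and Scd2) lay below 0 and those of 2 (Fasn and Hmgcs1) above 0. Per kb, 4 of the 8 (Srebf1, Srebf2, Sqle and Scd2) still had a ratio below 0. The ratio per kb divides by the called widths, which were narrower in KO, so it does not separate tags from width. The part of peak calling in this was not tested.

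**Figure D3:**
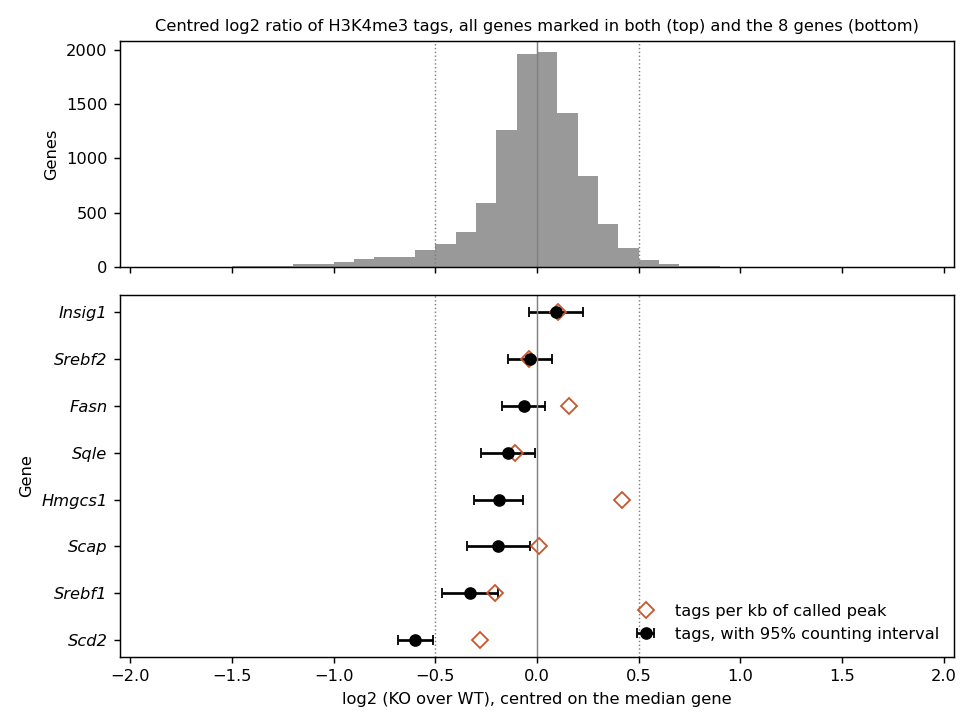
Centred log2 ratio of H3K4me3 tags, KO over WT, for the 9890 genes marked in both (top, number of genes per bin of the ratio, with values beyond the axis put in the outermost bins) and the 8 genes (bottom, black points with 95% counting intervals), with the ratio per kb of called peak as open diamonds. Scd2, at -0.60, is the member beyond the dotted line at -0.5, and Hmgcs1 turns from -0.19 to 0.42 per kb.

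Peaks were wider in WT at all 8 genes, by 112 bp (Srebf2) to 2317 bp (Hmgcs1), with a median of 435.5 bp. Over all genes marked in both, 64.3% had more bp covered in WT, with a median difference of 75 bp. Among genes with at least as many WT tags as Scap, the lowest of the 8, the share was 68.8%. The median fold over background of all listed H3K4me3 peaks was 30.8 in WT and 18.4 in KO. Its part in the widths was not tested. WT peaks reached further upstream at 7 of the 8, Srebf2 being equal, and further downstream at 7, Sqle being the exception. The reach on the side of the gene body changed more than that on the upstream side at 6 of the 8. Shares over all genes were not computed for these edges, so the counts are not shown to be particular to the 8.

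Other genes of sterol and lipid metabolism were counted from 7 lists, which add 77 genes. Of these, 76 had a known start, 66 carried the mark in both libraries and 5 in neither, while 5 had it only in the WT list and 0 only in the KO list. The median ratio of the 66 was -0.04, with 4 at or below -0.5 (6.06%, beside 6.07% of all genes) and 0 at or above 0.5. The share of low genes is thus that of the background. WT peaks were wider at 55 of the 66 (83.3%), against 64.3% of all genes. The 4 low genes were Scd1, Me1, Fads2 and Tm7sf2.

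Cholesterol synthesis genes were all marked in both genotypes, 20 of 20 with Hmgcs1 and Sqle included. Leaving those aside, the median of the 18 was -0.09. WT peaks were wider at all 18, beside 64.3% of all genes marked in both, and the part of peak calling in this was not tested. The lowest was Tm7sf2, a sterol reductase gene, with 205 and 162 tags (-0.61, interval -0.91 to -0.30). The highest was Ebp, a sterol isomerase gene, with 265 and 395 tags (0.31, interval 0.08 to 0.54).

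Desaturation and fatty acid synthesis held 3 of the 4 low genes. Beyond Fasn and Scd2, 11 of 13 genes were marked in both, with a median of -0.14 and 3 at or below -0.5, where 6.07% of all genes lay. With peaks of FDR at most 1%, Scd1 and Me1 were no longer marked in both and the median was -0.05. Scd1, another desaturase gene of the Scd2 locus, had 392 tags in WT and 127 in KO, a ratio of -1.89 (interval -2.19 to -1.60), and -1.31 per kb of peak. Fads2, which desaturates polyunsaturated fatty acids, had 825 and 548 tags (-0.86, interval -1.02 to -0.70), and -0.54 per kb. Me1, whose enzyme supplies NADPH for lipid synthesis, had 170 and 91 tags (-1.17, interval -1.55 to -0.79), and -0.74 per kb. Of the others, Elovl1, a fatty acid elongase gene, was highest at 0.22 (650 and 909 tags), and Acly and Slc25a1, which encode the enzyme and carrier that bring citrate into lipid synthesis, stood at 0.06 and -0.32. Acaca and Acacb had no mark within 1 kb of the start used, although 2 peaks in each library, with 1242 tags in WT and 1354 in KO, lay elsewhere in or next to Acaca.

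The desaturase locus on chromosome 19 was then examined as a whole, because Scd1 and Scd2 lie 114 kb apart start to start. Upstream of Scd2, peaks from 13.4 to 10.7 kb (192 tags) and from 10.5 to 8.2 kb (136 tags) were called in WT alone. A peak about 47 kb upstream held 219 tags in WT and 108 in KO (-1.29), whereas one about 27 kb upstream held 152 and 182 (-0.01). A peak of 128 tags within 20 kb of the Scd1 start, beyond the end of the gene, was called in WT alone. Scd3 and Scd4 had no mark at their starts in either library. A peak not called in KO may still hold tags below the threshold of the peak caller, whose number is unknown here.

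Genes that control SREBPs had ratios near 0. Beyond the 4 regulators above, 7 of 8 were marked in both, with a median of -0.03, from -0.18 at Rnf145, a ubiquitin ligase gene (1294 and 1377 tags), to 0.15 at Mbtps1, which encodes the site-1 protease that cleaves SREBPs (457 and 609). Insig2 had no mark at the Ensembl start, but 563 tags in WT and 656 in KO (-0.04) when all RefSeq starts were used. Among 10 sterol uptake and handling genes, 8 were marked in both, with a median of -0.04. Scarb1, a lipoprotein receptor gene, was lowest (320 and 329 tags, -0.23).

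Weak marks called in WT alone made up the rest. They were at the receptor genes Lrp1 (114 tags) and Vldlr (71), the cholesterol exporter gene Abca1 (80), the triglyceride synthesis gene Dgat2 (91) and Ppara, a nuclear receptor gene of fatty acid oxidation (153). Over all genes with a known start 6.17% had the mark only in WT and 0.16% only in KO, so a share of 5 in 76 is near the background. The other sterol efflux genes had a median of -0.12 over 5, from Abcg1 (334 and 337 tags, -0.25) to Nr1h3, which encodes the sterol receptor LXR alpha (335 and 454, 0.17). Glycerolipid synthesis genes had a median of -0.16 over 7, from Lpin1 (699 and 654 tags, -0.36) to Pcyt1a (392 and 530, 0.17).

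Fatty acid oxidation, the opposing pathway, had a median of 0.09 over 10 genes, 9 of them above 0, while the other lists had medians below 0. That contrast in sign depends on the scale. Per kb of peak the medians of cholesterol synthesis (0.09), SREBP control (0.05) and sterol uptake (0.04) were also above 0, beside 0.12 for oxidation. Scaled by all tags in peaks, SREBP control (0.06) and sterol uptake (0.04) were above 0, beside 0.18 for oxidation. In the oxidation list 3 of 10 intervals lay wholly above 0, against 19% of all genes, and 2 of the 3 are those of Hadha and Hadhb. Hadha and Hadhb, which encode the mitochondrial trifunctional protein, share 1 region of 870 and 1270 tags (0.28) and are not independent. Acadvl was the lowest (133 and 131 tags, -0.29, interval -0.65 to 0.07). Whether this list differs from the synthesis lists was not tested, since each genotype has 1 library.

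**Figure D4:**
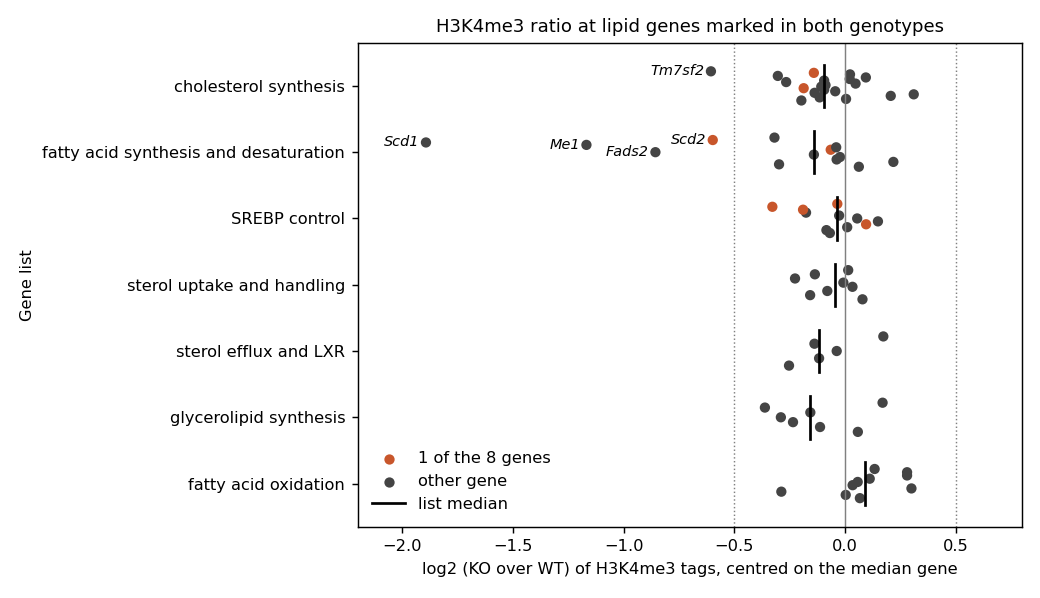
Centred log2 ratio of H3K4me3 tags, KO over WT, for each gene marked in both libraries in 7 lists of sterol and lipid metabolism, with the 8 genes in orange, other genes in grey and list medians as vertical lines. Most genes lie between the dotted lines at -0.5 and 0.5, and those beyond are Tm7sf2, Scd1, Me1, Fads2 and Scd2.

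Tcf1 peaks were looked for around the 8 genes. The median FDR of the listed Tcf1 peaks was 26.6% in WT and 96.9% in KO, so many of these peaks are uncertain calls. No Tcf1 peak of either library lay in any of the 8 genes or within 50 kb. Of all genes, 4.39% had a WT peak at that distance, 3.87% a peak called only in WT and 20.6% a KO peak. A count of 0 in 8 is too small to set against these shares. The nearest WT peak was 51.8 kb from Scap (130 tags, FDR 6.76%), and the KO library, which lacks the target of the antibody, had a peak at the same place (136 tags). For the other 7 genes the nearest WT peak was 986 kb (Srebf1) to 2879 kb (Hmgcs1) away. In the wider lists, Mbtps2, Erlin2 and Slc25a1, out of 77 genes, had a WT Tcf1 peak within 50 kb, beside 4.39% of all genes. KO peaks at that distance were found for more of the listed genes, among them Mbtps2, which had one within 10 kb. The KO list is longer, with 5139 peaks against 866, and 20.6% of all genes had a KO peak at that distance. The higher number is thus not shown to be particular to the listed genes.

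At Tcf7 itself H3K4me3 gave 525 tags in WT and 535 in KO (-0.24), and peaks at the start do not check what was deleted. Over the whole series, the H3K4me3 lists held 13771 peaks with 6635272 tags in WT and 11074 peaks with 7507763 tags in KO, and the Tcf1 lists 866 and 5139 peaks. NK cell marker promoters were marked at 10 of 10 in each library, with summed tags of 12734 in WT and 16311 in KO. T cell markers were marked at 2 of 7 in WT (Cd3d and Cd3e, 99 tags in all) and 0 in KO, B cell markers at 0 of 3 in each, myeloid markers at 2 of 6 in WT (Cd14 and Cebpa, 208 tags) and 0 in KO, and erythroid markers at 2 of 6 in WT (Klf1 and Epor, 320 tags) and 1 in KO (Klf1, 227 tags). Cd4, Cd8a, Cd79a and Lyz2 were at 0 in both. Fewer cells with a mark and less mark per cell cannot be told apart in these bulk libraries.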

How the data were processed

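H3K4me3 and Tcf1 peak lists of 1 library per genotype and antibody were used, 4 of 6 libraries in all, and the input libraries were not analysed here. Chromatin was fixed in 1% formaldehyde over 10 minutes, per the labels. Alignment and peak tools named in the submitters' processing notes are Bowtie2 2.1.0 and MACS 1.4. Genome builds named there are mm10, GRCm38 and GRCh37, and the positions were read as GRCm38, since 99.8% of 12982 gene features in the lists overlap the GRCm38.p6 gene with the same Entrez identifier. The control track and peak settings are not given in the sources used here. Per the file headers, each peak has a raw count of tags, a score (10 times the negative log10 of the p-value), a fold ratio over background and an FDR in percent. These are the authors' values, used only to describe peaks and lists or to filter peaks within a list. Widths are those of the deposited peaks.

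Rows were reduced to distinct peaks, starts were shifted to count from 1, and peaks overlapping by at least 1 bp were merged across libraries. Gene starts were those of the Ensembl features in the lists (12904 genes) or, failing that, of the RefSeq table (7091 genes), and 1888 genes without a start were left out. Features are listed near peaks, so shares of marked genes are approximate. Intervals are exact binomial on the tags of both libraries. PCR copies were not identified, so intervals cover counting error only. A gene was named if it was 1 of the 8, or, in a list, marked in 1 genotype, beyond 0.5 with at least 100 tags, or highest or lowest; some genes of the lists are not reported here. Acly, Slc25a1, Hadha, Hadhb, Insig2, Acaca, Acacb, Scd3, Scd4 and the genes near Tcf1 peaks were picked after seeing values. The 8 genes and the lists were chosen with earlier results of these data known. On simulated data 200 of 200 genes changed by 1 (log2) were recovered beyond 0.5 among 9890, and 11 of 9690 unchanged genes passed. That change exceeds both the cutoff and the main ratio of every one of the 8 genes, so recovery of smaller changes is not shown. With 1 library per genotype, the 11 genes do not give a rate of false calls for the real data. Changes of peak boundaries were not simulated. Software was Python 3.11.15 with pandas 2.3.3, numpy 2.4.6, matplotlib 3.10.9 and scipy 1.17.1.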

Additional observations from a re-analysis of the deposited data

How the results depend on the processing

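Counting tags per kb of called peak moved the median ratio of the 8 genes from -0.16 to -0.014 and the number at or below -0.5 from 1 to 0. Peaks called separately raised that number to 2, because Srebf1 came to -1.94, where the split of its KO peak leaves part of the tags out. Within 100 kb, 1 gene (Scap) had a WT Tcf1 peak and 2 (Scap and Srebf2) a KO one, against 0 within 50 kb. The ratio of Scd2 ranged from -0.61 to -0.28 and that of Scd1 from -1.90 to -1.31 over the alternatives that kept it. With peaks of FDR at most 1%, Scd1, Me1, Tm7sf2 and Acadvl were no longer marked in both, nor was Me1 at a score of at least 100, Tm7sf2 where the region had to cover the TSS, or Lpin1 and Nr1h3 with all RefSeq starts. Scaling by all tags in peaks shifted every ratio up by 0.09, which moved the median of the 8 to -0.08 and that of the 66 other genes from -0.04 to 0.05, and took Fasn to 0.02 and Srebf2 to 0.05. Of 53 alternative values of the group counts and medians, 48 counted as unmoved, and so did 288 of 302 values of lists and genes. A count was unmoved within 1.5 times its value, and a gene within its counting error. A median was unmoved if it shifted by less than the counting error of a typical single gene. That allowance does not measure the error of a median. The median of the 66 other genes counted as unmoved although its sign turned. Acadvl came to -0.68 with a window of 2.5 kb. The use of all RefSeq starts and of lists of equal length was chosen after seeing the data. No paired analysis was possible because each group holds 1 library. Depth is unknown, so a peak missing from a list is not shown to be absent.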

Other observations

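Of the 5 lipid genes at or below -0.5 (Scd1, Me1, Fads2, Tm7sf2 and Scd2), 4 lie on chromosome 19, where 11 genes of the lists were marked in both. Over all genes on chromosome 19 marked in both, 21 of 353 (5.95%) were at or below -0.5 and the median ratio was -0.01. This was looked at after the values were seen and was not tested.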
